A study of Mus musculus with 6 samples.

Results

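Hormone and growth factor signals of the Sertoli cell were read out from 9 named genes: the FSH receptor gene Fshr, the inhibin and activin subunit genes Inha, Inhba and Inhbb, the activin antagonist Fst, the hormone gene Amh with its receptor Amhr2, and the type II activin receptors Acvr2a and Acvr2b. All array probes whose annotated gene symbol was one of these names were taken, each probe on its own. They came to 13 probes of 8 genes, out of 19057 named genes on the array; no probe was assigned to Inhbb in the annotation used, and it was not analysed here. The samples were Sertoli cells, the somatic cells that nurse germ cells in the seminiferous tubule, taken by fluorescence-activated sorting, with no sort marker named in the labels. The mice were C57B6J/129SvEv and aged 6 weeks in both groups. In the cKO group (Rb1 flox/-; Amh-Cre +), Cre recombinase driven by the Amh promoter, which is active in Sertoli cells, acts on a floxed allele of the retinoblastoma gene Rb1 whose other allele is null. Control mice (Rb1 flox/-) had these alleles too but no Cre, so every animal lacked 1 copy of Rb1 from the start. Since only cKO cells carried Cre, what Cre does by its presence and what Rb1 loss does cannot be told apart. Each group had 3 Illumina bead arrays. The labels do not say that these came from separate animals, so the p-values measure only the spread between arrays, which may be technical. The comparison asks how these transcripts differ when Rb1 is lost.

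Pituitary FSH acts on Sertoli cells through its G protein-coupled receptor, which raises cyclic AMP. Inhibin pairs the alpha subunit with a beta subunit and restrains FSH release, whereas activins are dimers of beta subunits that signal through type II receptors and SMAD proteins and are bound by follistatin. AMH, made in quantity by immature Sertoli cells, causes regression of the Müllerian ducts through its own type II receptor and is low in the adult testis.

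The promoters of Fshr and Amhr2, the receptor genes with a bright signal on every array, are shown because they hold motifs of regulators that were also measured. Both are RefSeq windows of 300 bases on GRCm38.p6, from 250 bases before the start site given in the reference table, written 5′ to 3′ on the gene's strand. Capitals mark CACGTG, the E-box bound by USF factors, in Fshr (chr17:89200626-89200925, minus strand) and CAAGGTCA, a motif of NR5A1, in Amhr2 (chr15:102445117-102445416, plus strand).
Fshr: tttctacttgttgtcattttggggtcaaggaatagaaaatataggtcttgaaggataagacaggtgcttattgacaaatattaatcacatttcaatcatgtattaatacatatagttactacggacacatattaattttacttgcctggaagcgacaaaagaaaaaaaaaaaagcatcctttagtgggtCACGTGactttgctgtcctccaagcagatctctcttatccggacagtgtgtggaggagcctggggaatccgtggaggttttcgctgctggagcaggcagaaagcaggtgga
Amhr2: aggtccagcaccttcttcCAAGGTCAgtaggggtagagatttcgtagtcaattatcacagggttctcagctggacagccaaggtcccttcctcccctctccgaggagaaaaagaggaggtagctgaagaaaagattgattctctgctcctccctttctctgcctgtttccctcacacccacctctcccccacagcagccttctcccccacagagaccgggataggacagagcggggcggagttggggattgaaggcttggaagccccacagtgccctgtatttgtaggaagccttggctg
The E-box began at position -61 from the start site in Fshr and the NR5A1 motif at -232 in Amhr2, whose window uses a start site 365 bases downstream of the first annotated base of the gene. Searched on both strands, CACGTG was in 7.15% of all 32851 promoter windows, CAAGGTCA in 1.56%, and the shorter AAGGTCA, which lies within it, in 4.72%. RefSeq windows were matched for 7 of the 9 genes, with none for Amh or Fst. Of these 7, the windows of Inha, Acvr2b and Inhba used start sites 532, 595 and 7595 bases downstream of the gene's first annotated base. The other 7 motifs searched, with their shares of all windows, were in none of these 7: AGATAA of GATA factors (11.2%), AACAAT of SOX factors (10.7%), the cyclic AMP response element TGACGTCA (1.79%) and its part TGACGT (7.51%), TTTCGCGC and TTTGGCGC of E2F (0.323% and 0.514%), and CAGACA of SMADs (21%). A match is a description of the letters and not evidence of binding.

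The arrays themselves differed in ways that touch the results. The leading principal component, with 58.9% of the variance, put cKO replicate 1 at -113.9 and Control replicate 3 at 110.2, with the other 4 arrays between -34.27 and 31.36. Among tested probes, 435 were lower on cKO replicate 1 than on each of the other 5 arrays by over 2 log2 units, and 341 were higher on Control replicate 3 than on each of the other 5 by that margin; the remaining counts of this kind ran from 0 to 16. Both Rb1 probes were lower in cKO without passing the test, at -1.22 ± 0.32 (SE, log2) and -0.98 ± 0.34, with limma adjusted p-values of 0.399 and 0.668; whether these probes fall inside the floxed segment is not known here. Of 14 Sertoli markers, 11 had a probe, all 11 were tested (Amh, Fshr and Inha are among them), and their summed normalised intensity was 47077 to 56755 in cKO and 55732 to 68051 in Control.

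Markers of other testis cells were read in the same fit, and 0 of their probes passed it. The summed signal of peritubular, leukocyte and endothelial markers was higher on every cKO array than on any Control array, whereas Leydig and germ cell sums overlapped. In a sorted population fewer cells of a type and less RNA per cell cannot be told apart. Leydig cells, which also express Inha and Amhr2, had 7 of 8 markers on the array and 5 tested; their summed normalised intensity was 2367 to 8659 in cKO and 1239 to 3054 in Control. Their brightest marker Insl3 averaged 11.68 in cKO and 10.08 in Control (log2; limma adjusted p = 0.732), and Hsd3b1 was not above background on any array. Of 6 tested Leydig probes 5 were higher in cKO, as were 6 of 6 peritubular, 4 of 4 leukocyte and 5 of 5 endothelial probes, where 43% of all tested probes were lower. The median differences of these lists were 0.92, 1.05, 1.19 and 0.59 log2 units in that order, against 0.078 over all tested probes. The Leydig marker Star, named here after its values were seen, was above background on 3 cKO and 0 Control arrays. It met the filter of detection on at least 3 arrays only through cKO, so its lack of overlap is partly set by that filter. The groups did not overlap for 1 of 6 tested Leydig probes, Star, against 12.1% of all tested probes. Star did not pass (limma adjusted p = 0.151). Summed peritubular markers were at 3459 to 9965 in cKO and 1721 to 2046 in Control, led by Acta2, with Cnn1 and Tagln not above background. Summed macrophage and leukocyte markers were at 531 to 770 in cKO and 198 to 307 in Control, led by Cd74, with Ptprc not above background. Endothelial sums were 379 to 680 in cKO and 219 to 358 in Control, led by Vwf, with Kdr not above background. Germ cell sums were 55707 to 57005 in cKO and 52531 to 59962 in Control, led by the protamine gene Prm1, with Sycp3 and Zbtb16 not above background. The brightest Prm1 probe read 14.72 to 14.90, at the top of the scale, where saturation may compress differences in this sum. Of 9 tested germ cell probes 4 were higher in cKO and 5 lower. The part of these other testis cells in the differences below was not tested.

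No probe of the 9 genes passed the test between cKO and Control. Of the 9 member probes that were bright enough to test (detected on at least 3 of the 6 arrays), 0 had a limma adjusted p under 0.05, where 0.142% of all 21805 tested probes did. At an unadjusted p under 0.05 the count was 1 of 9, Fst, which was higher in cKO, against 6.39% of all tested probes (4.63% higher and 1.76% lower). The arrays of the groups did not overlap for 1 of 9, again Fst, against 12.1% of all tested probes (8.04% higher and 4.01% lower). The difference was negative for 8 of the 9 probes, with a median of -0.36 log2 units; over all tested probes 43% were negative and the median was 0.078. Sertoli markers lay the same way, with 13 of 14 tested probes lower and a median of -0.41, and that list shares Amh, Fshr and Inha with the members. The 9 probes stand for 6 genes, and the probes of a gene are not independent. The remaining 4 probes, of Fshr, Inhba and Acvr2a, were too dim to test.

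**Figure D1:**
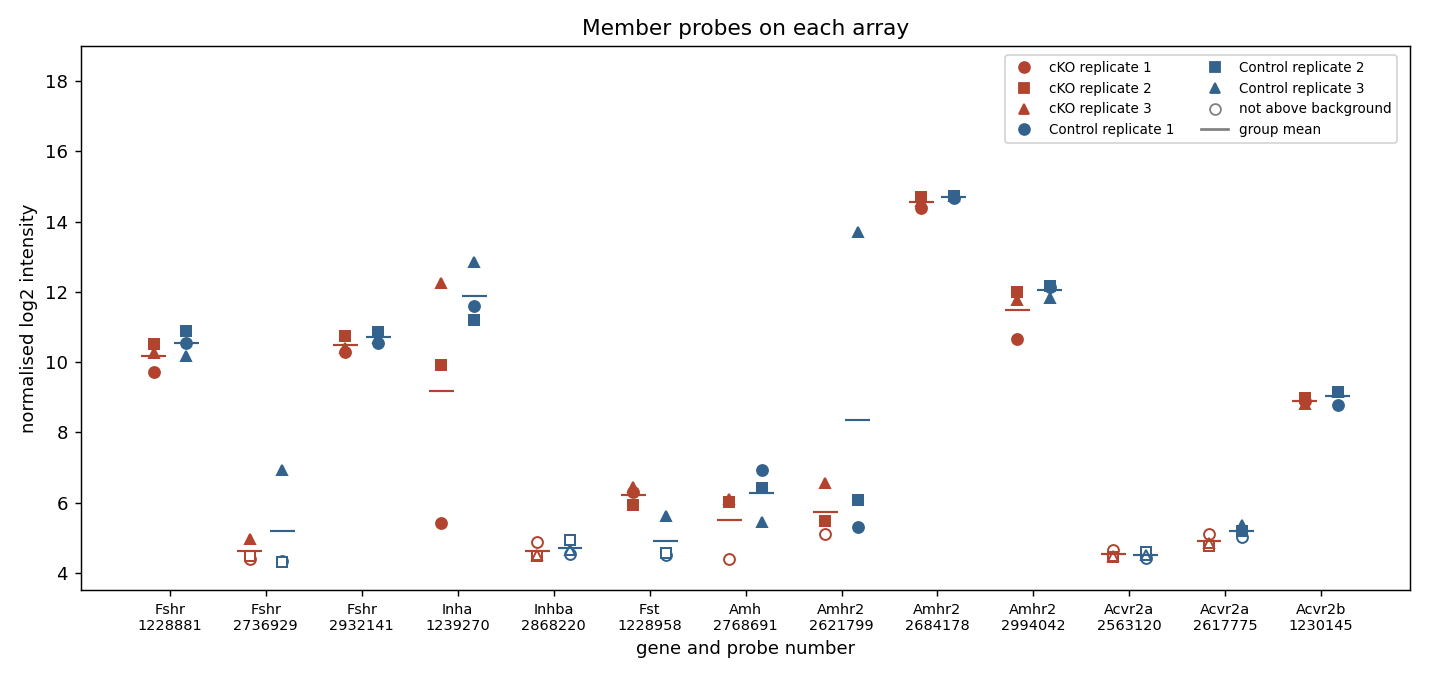
Normalised log2 intensity (y axis) of the 13 probes (x axis) on 3 cKO arrays (left, red) and 3 Control arrays (right, blue) of each probe; lines are group means and open symbols are arrays where the probe was not above background. Inha spans 5.42 to 12.24 in cKO, and 1 Amhr2 probe reaches 13.69 on Control replicate 3 alone.

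Among the ligand genes, Inha, which encodes the alpha subunit that makes a dimer an inhibin, was the most variable. Its single probe (ILMN_1239270) read 5.42, 9.92 and 12.24 on cKO replicates 1 to 3, against 11.59, 11.20 and 12.85 on the Control arrays, in normalised log2 intensity. On the scanner scale these were 69.6, 1126.6 and 4400.3 in cKO and 3211.7, 2106.7 and 6499.8 in Control. The groups overlapped: cKO replicate 3 was above 2 of the 3 Control arrays, whereas cKO replicate 1 was barely above background, with a detection score of 0.960 where over 0.95 counts as detected. The bead error was small beside this spread, at 4.74 (SE over 36 beads) for the 69.6 on cKO replicate 1 and 98.2 for the 4400.3 on cKO replicate 3. Group means were 9.19 ± 3.47 in cKO and 11.88 ± 0.86 in Control (SD, n = 3 each). The difference was -2.69 ± 1.54 (SE), with a 95% interval from -6.29 to 0.92 and a limma adjusted p of 0.766. Without cKO replicate 1 it was -0.80, and without both arrays that stood apart it was -0.32; without cKO replicate 3 it was -4.21, with adjusted p-values of 1, 1 and 0.365. Set against the Control array of the same number, Inha was lower in cKO in 3 of 3 pairs. How many of all tested probes keep the same sign in 3 of 3 such pairs was not counted. With the replicate number as a block the limma adjusted p of Inha was 0.355. The gap of 4.50 log2 units between cKO replicate 1 and the next lowest array was the seventh widest of its kind among all 45281 probes.

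The genes whose profile over the 6 arrays was most like that of Inha were chosen for that likeness, so their own spread and their low array are set by the choice. After each probe was centred on its own mean, the smallest root mean square differences from Inha, among the brightest probes of 11696 other genes, were those of the calpain small subunit Capns1 (0.405 log2 units), the glutathione transferase Gstm7 (0.421) and the unconventional myosin Myo7a (0.458). Capns1 read 4.81, 8.86 and 12.21 in cKO and 10.48, 10.37 and 12.63 in Control. For Fshr the closest profiles were those of the Bardet-Biedl syndrome gene Bbs9 (0.0471), Cyth3, an exchange factor for ARF GTPases (0.0485), and the chaperone Hspa8 (0.051). For Amh they were Srrd (0.231), Zfp316 (0.25) and Nelfb, a subunit of the negative elongation factor (0.258). These are likenesses over 6 arrays of 2 groups, given as a description.

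**Figure D2:**
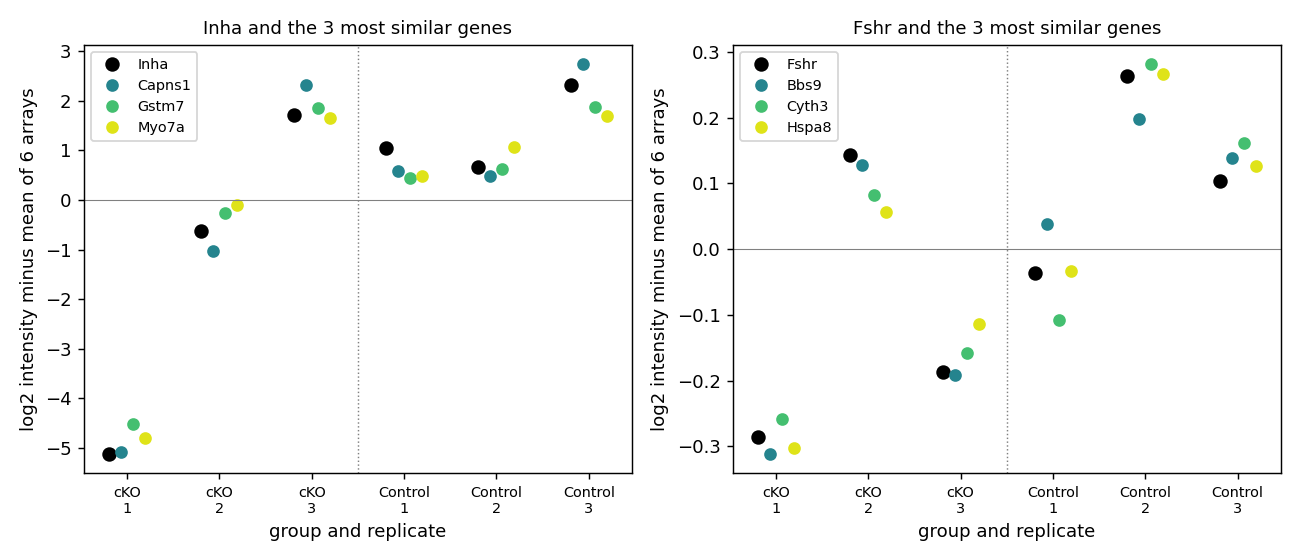
Log2 intensity minus the probe's mean over 6 arrays (y axis) on each array (x axis, cKO left and Control right of the dotted line) for Inha with Capns1, Gstm7 and Myo7a, and for Fshr with Bbs9, Cyth3 and Hspa8; points are single arrays and the y axes of the panels differ in scale. In the Inha panel all 4 genes are lowest on cKO replicate 1, and Inha itself covers levels of 5.42 to 12.85; Fshr covers 10.30 to 10.85.

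Inhba, which encodes the beta A subunit shared by inhibin A and activin A, was not above background on any of the 6 arrays. Its probe (ILMN_2868220) read 4.88, 4.47 and 4.51 in cKO and 4.53, 4.93 and 4.64 in Control, so no fold is given. Amh was dim but detected on 5 arrays. Its probe (ILMN_2768691) read 4.38, 6.02 and 6.09 in cKO, with replicate 1 not above background, against 6.93, 6.41 and 5.46 in Control. The groups overlapped, since cKO replicates 2 and 3 lay above Control replicate 3. Amh averaged 5.50 ± 0.97 in cKO and 6.27 ± 0.74 in Control (SD, n = 3 each), a difference of -0.77 ± 0.57 (SE; 95% interval -2.10 to 0.56; limma adjusted p = 0.766), and of -0.21 without cKO replicate 1. The Amh promoter also drives Cre in the cKO cells, and whether the transgene carries sequence that this probe reads was not tested.

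Fst, which encodes the activin-binding protein follistatin, was the one tested member whose groups did not overlap, 1 of 9 probes against 12.1% of all tested probes. It met the filter of detection on at least 3 arrays through the cKO arrays, where it is high, so its separation and p are partly set by that filter. Its probe (ILMN_1228958) read 6.29, 5.94 and 6.44 on the cKO arrays, all above background. In Control it read 4.52, 4.55 and 5.62, and replicate 3 alone was above background. The difference was 1.33 ± 0.37 (SE; 95% interval 0.46 to 2.19), with an unadjusted p of 0.00807 and an adjusted p of 0.440 in limma, so it did not pass. No fold is given, since 2 of the 3 Control values were not above background, and the size of the difference depends on how background is treated, at 0.75 with a normexp offset of 50 and 0.89 with no correction. On the scanner scale the groups nearly met, at 94.4 ± 3.26 on cKO replicate 2 and 94.1 ± 4.13 on Control replicate 3 (bead SE). Over the alternatives the difference stayed positive, at most 1.69 without Control replicate 3, and adjusted p-values ran from 0.0516 with array weights to 0.920. The part of the higher peritubular, leukocyte and endothelial marker sums in the Fst difference was not tested.

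Among the receptor genes, Fshr gave no call. It had 3 probes annotated to the same transcript, and 2 were bright on every array. Probe ILMN_2932141 read 10.30, 10.73 and 10.40 in cKO and 10.55, 10.85 and 10.69 in Control. Probe ILMN_1228881 read 9.71, 10.52 and 10.26 in cKO and 10.53, 10.88 and 10.17 in Control. In both, cKO replicate 1 was the lowest array and the groups overlapped. The differences were -0.22 ± 0.26 (SE; 95% interval -0.82 to 0.38; limma adjusted p = 0.805) and -0.36 ± 0.33 (-1.13 to 0.40; adjusted p = 0.772). As folds of cKO over Control, these intervals run from 0.567 to 1.31 and from 0.458 to 1.32, so differences of either direction up to these limits remain possible. Leaving out 1 array moved them to between -0.35 and -0.13 (lowest without cKO replicate 2, nearest 0 without cKO replicate 1) for ILMN_2932141, and to between -0.54 (without cKO replicate 2 or Control replicate 3) and -0.14 (without cKO replicate 1) for ILMN_1228881; with array weights the first was -0.0016. Against the same-numbered Control array, ILMN_2932141 was lower in cKO in 3 of 3 pairs, whereas ILMN_1228881 was higher on cKO replicate 3. The share of all tested probes with 1 sign in 3 of 3 pairs was not counted. The third probe, ILMN_2736929, was dim: it read 4.40, 4.49 and 4.97 in cKO and 4.34, 4.32 and 6.94 in Control, and was detected on cKO replicate 3 (score 0.952) and Control replicate 3 only.

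Amhr2, the receptor for AMH, had 3 probes annotated to the same transcript that behaved differently. Probe ILMN_2684178 was near the top of the scale, ranking from 10 to 46 among 45281 probes on every array, where saturation may compress differences. It read 14.39, 14.70 and 14.59 in cKO and 14.67, 14.73 and 14.73 in Control, a difference of -0.15 ± 0.24 (SE; 95% interval -0.71 to 0.41; limma adjusted p = 0.850). Probe ILMN_2994042 read 10.66, 12.00 and 11.76 in cKO and 12.14, 12.17 and 11.82 in Control, with cKO replicate 1 alone low. Its difference was -0.57 ± 0.39 (95% interval -1.48 to 0.35; adjusted p = 0.766), and -0.16 without cKO replicate 1. Both of these probes were lower in cKO than in the same-numbered Control array in 3 of 3 pairs, as was the third probe. Some of these gaps were small, at 14.70 against 14.73 and 11.76 against 11.82, and the probes of a gene are not independent. The share of all tested probes with 1 sign in 3 of 3 pairs was not counted, and whether the numbers pair the arrays is not known. Under the replicate block, limma adjusted p-values were 0.743 for ILMN_2684178 and 0.478 for ILMN_2994042. Among the other tested members, Fst was higher in cKO in 3 of 3 such pairs, whereas Fshr ILMN_1228881, Amh and Acvr2b were of mixed sign. Probe ILMN_2621799 read 5.10, 5.48 and 6.57 in cKO, against 5.31, 6.07 and 13.69 in Control. Its signal on Control replicate 3 was 11691.2 ± 299 (SE over 36 beads) on the scanner scale, against 62.4 to 133.2 on the other 5 arrays. That gap of 7.12 log2 units above the next array was the third widest on Control replicate 3 among all 45281 probes. Its difference of -2.64 ± 2.01 (adjusted p = 0.766) rested on that array and was 0.02 without it.

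The type II activin receptors gave no call. Acvr2b (ILMN_1230145) read 8.89, 8.98 and 8.81 in cKO and 8.77, 9.15 and 9.15 in Control. Its difference was -0.13 ± 0.25 (SE; 95% interval -0.72 to 0.46; limma adjusted p = 0.876), or as a fold 0.609 to 1.37, and the groups overlapped. Acvr2a had a probe annotated to its RefSeq transcript and a probe annotated to a cDNA clone. The first, ILMN_2617775, read 5.11, 4.75 and 4.85 in cKO, none above background, and 5.01, 5.19 and 5.36 in Control, with replicates 2 and 3 above background; The groups overlapped, since cKO replicate 1 lay above Control replicate 1, and the probe was not tested. The second, ILMN_2563120, was not above background on any array, at 4.46 to 4.66 in cKO and 4.43 to 4.59 in Control.

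**Figure D3:**
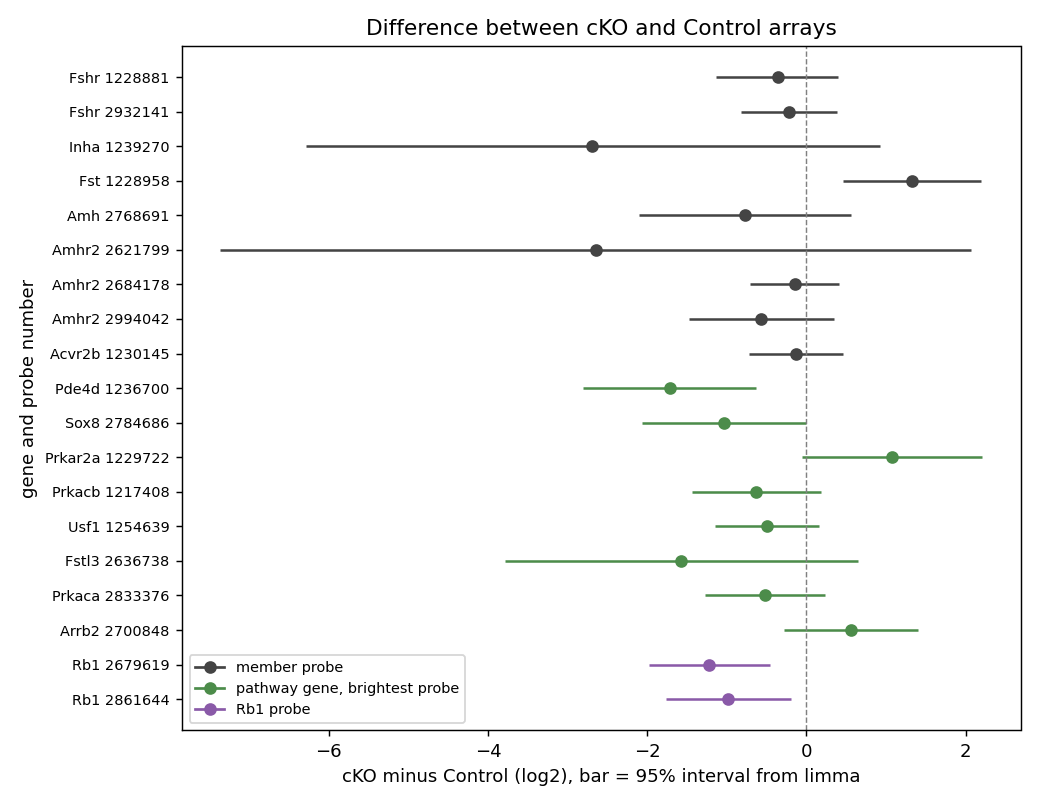
Difference between cKO and Control arrays in log2 units (x axis, points) with its 95% interval from limma (bars) for the 9 tested member probes, 8 genes of the wider pathway and the 2 Rb1 probes (y axis). Fst lies right of 0 at 1.33, and the intervals of Inha and Amhr2 ILMN_2621799 are the widest; none of the points passed after adjustment over all 21805 tested probes.

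Other genes of these pathways gave no call either. Of 51 further genes of activin, inhibin and AMH signalling, FSH receptor signalling and the regulation of Amh, Inha and Fshr, 48 had a probe and 35 were tested, by 59 probes. At a limma adjusted p under 0.05, 0 of 59 passed in either direction. At an unadjusted p under 0.05 in limma there were 2 of 59, both lower, against 6.39% of all tested probes (4.63% higher and 1.76% lower). The groups did not overlap for 6 probes, or 10.2%, against 12.1% of all tested probes. The median difference was 0.16 over 21 probes of the activin, inhibin and AMH side, -0.18 over 25 probes of the FSH receptor side and -0.45 over 13 probes of the transcriptional regulators. Among the regulators 11 of 13 probes were lower, against 43% of all tested probes. These 13 probes stand for 8 genes and are not independent, and Sox9, Gata4 and Gata1 are also among the Sertoli markers above. On the activin side, the beta subunit genes Inhbc and Inhbe, the receptor gene Acvr1c, the pseudoreceptor gene Bambi and the inhibitory SMAD genes Smad6 and Smad7 were not above background on any array.

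The smallest p in this wider set belonged to Pde4d, a phosphodiesterase that degrades cyclic AMP and that FSH induces in rat Sertoli cells. Its brightest probe (ILMN_1236700) read 5.10, 6.83 and 6.62 in cKO and 7.84, 8.02 and 7.85 in Control, with no overlap. On cKO replicate 1 it was not above background. The difference was -1.72 ± 0.46 (SE, limma adjusted p = 0.416), and -1.18 without cKO replicate 1. Other tested Pde4d probes gave -0.01 and 0.17, so the probes of this gene disagreed. Sox8, a relative of Sox9 that can activate Amh, read 6.93, 7.71 and 7.94 in cKO and 7.89, 8.53 and 9.30 in Control, and differed by -1.04 ± 0.44 (adjusted p = 0.766; another probe -0.48). Of the protein kinase A genes, the catalytic subunit Prkacb differed by -0.63 and by -0.30 without Control replicate 3; its groups parted by little, at 10.01 on the highest cKO array and 10.02 on the lowest Control array. Prkaca differed by -0.52 without overlap (-0.26 without cKO replicate 1), and by -0.47 with overlap on its other probe. The regulatory subunit Prkar2a differed by 1.08, and by 0.64 without Control replicate 3, on a probe annotated to a cDNA clone. The Prkar2a probes annotated to its RefSeq transcript were too dim to test. Prkar1a differed by -0.20 and Prkar2b by 0.25. Fstl3, a follistatin-like activin inhibitor, read 4.47, 7.14 and 8.57 in cKO, with replicate 1 not above background, and 8.01, 7.92 and 8.96 in Control. Fstl3 differed by -1.57 ± 0.95, and by -0.44 without cKO replicate 1. Arrb2, a beta-arrestin that uncouples receptors, differed by 0.56. Usf1, a factor that binds the E-box printed above, differed by -0.49 (another tested probe 0.10). Nr5a1, named here after its values were seen for the motif in Amhr2, read 4.68, 5.54 and 7.54 in cKO and 6.85, 6.78 and 6.95 in Control. The 4.68 on cKO replicate 1 was not above background. The probes of Nr5a1 differed by -0.94 and -0.93. In limma the adjusted p was 0.821 for Prkar1a, 0.811 for Prkar2b and 0.766 for the first probe given of each other gene here but Pde4d.

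**Figure D4:**
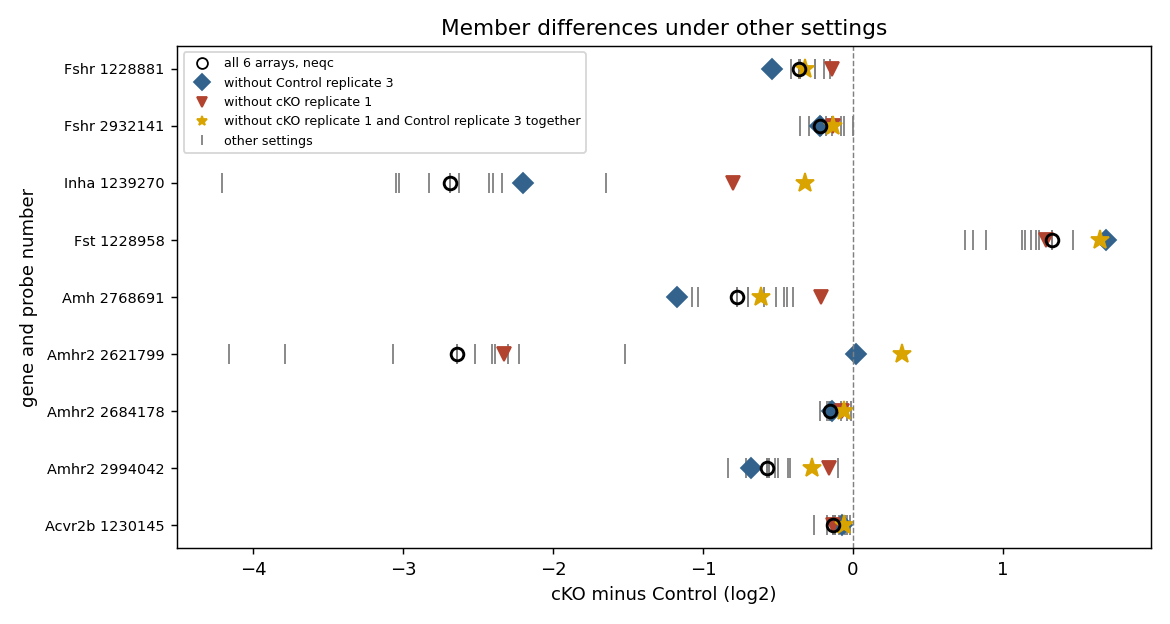
Difference between cKO and Control in log2 units (x axis) for the 9 tested member probes (y axis) on all 6 arrays (open circles), without 1 or both of the arrays that stood apart (coloured symbols) and under the other settings (grey ticks). Inha moves from -2.69 to -0.32 without both arrays, Amhr2 ILMN_2621799 crosses 0, and Fst stays between 0.75 and 1.69.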

How the data were processed

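Each scanner table holds, per the file headers, the mean intensity of every probe, the spread between its beads, the bead number and a detection score. The deposited intensity values are linear and unscaled between arrays. The deposited score rises from 0 to 1, and over 0.95 was taken as detection. Per the submitters' processing notes the software was BeadStudio (no version stated). The deposited series table holds log2 values, which match log2 intensity once each array is scaled to its 75th percentile and each probe to its median. This relation joined all 45281 probe IDs to scanner probes (largest distance 0.000688, smallest to a second probe 0.00424). Array depth is limited by bead number, with a median of 43 to 44 per probe.

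Background correction (normexp) and quantile normalisation followed limma's neqc, offset 16, in limma 3.58.1 (R 4.3.3). Probes detected on at least 3 arrays were compared with lmFit and eBayes, two-sided, with Benjamini-Hochberg adjustment over 21805 probes at 0.05. All adjusted p-values are from limma. The fit was tested on data simulated with independent noise for each probe and no shift of whole arrays. That test therefore does not cover the effect of the arrays that stood apart. Named genes are every member probe, up to 8 pathway genes with the smallest p, the brightest and the undetected markers, and the 3 closest profiles of Fshr, Inha and Amh. For a gene with several probes, the brightest tested probe ranks it. Alternatives changed background, scaling, filter, probes per gene, block, weights and arrays. Members and lists were chosen with earlier results of these data known. Same-numbered arrays deviated together (correlations 0.262, 0.41 and 0.473), but differently numbered arrays were not compared. The labels do not say what the replicate numbers stand for, so whether they pair the arrays is not known. They entered as a block in an alternative only. Planned log ratios between members are not reported, since each joined different probes and involved genes near background, near saturation or not analysed.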

Additional observations from a re-analysis of the deposited data

How the results depend on the processing

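In all 16 alternatives limma called 0 member probes and 0 probes of the wider pathway list, as in the fit reported. With the replicate block the estimates were the same and 0 were called. In that limma fit 8 of 59 pathway probes, 4 of them higher, had an unadjusted p under 0.05, against 2 without the block. The share of all tested probes at that p under the block was not counted, so the rise is not read as one of the pathway. The lowest limma adjusted p of a member with the block was 0.202. The sign held for 8 of the 9 tested member probes wherever they were fitted; Amhr2 ILMN_2621799 reversed to 0.02 without Control replicate 3 and to 0.33 without that array and cKO replicate 1 together. Without 1 array at a time, that probe ran from -4.16 to 0.02, Inha from -4.21 to -0.80 and Amh from -1.17 to -0.21. Over the whole array, 31 probes were called in the fit reported, 0 with the block or without any 1 Control array, 1 without the filter, 12 and 13 with an offset of 50 and without background correction, 2, 8 and 15 without cKO replicates 2, 1 and 3, 6 without both arrays that stood apart, and 314 with array weights, a fit whose weights did not fully converge. With weights 1 Rb1 probe passed, at -1.43 (adjusted p = 0.0156). The median of all probes moved by -0.106 without the 2 arrays that stood apart. Signals of Inhba, Acvr2a and 1 Fshr probe lay too near background for a comparison, and 3 arrays a group limit the precision.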

Other observations

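Single probes of other genes were also far brighter on Control replicate 3 than elsewhere; these genes were looked up after their values were seen. A probe of the chaperone Hspa8 (ILMN_2918479) lay 8.34 log2 units above the next array there, the widest such gap of all probes, whereas the Hspa8 probe whose profile was close to Fshr read 13.65 on that array and 13.22 to 13.79 on the others. A pair of probes of the elongation factor Eef2 lay 6.52 and 6.42 above together, and 1 probe each of Xpnpep1, Rbbp7 and Lsr lay 6.67, 6.29 and 6.22 above. The cause was not tested.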
